A study of Mus musculus with 4 samples.

Results

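The genes described here are 10 regulators of signalling below dopamine and serotonin receptors: the RGS proteins Rgs2, Rgs4, Rgs16, Rgs7, Rgs9 and Rgs10, and the G-protein alpha subunits Gnai1, Gnao1, Gnal and Gnaq. They were taken by gene symbol from an array of 16504 named genes, and 12 array features carry them, 1 for each gene except Gnal and Gnaq, which have 2 each. All 10 had a ratio on all 4 arrays, and none of their 12 features held an exact 0. Male mice of the outbred ddY stock, aged 13 weeks, gave the frontal cortex RNA. They were injected into the peritoneum once a day for 28 days with vehicle or a drug (chlorpromazine 25 mg/kg, thioridazine 25 mg/kg, olanzapine 1.25 mg/kg, quetiapine 18.75 mg/kg), and each drug has 1 array on which its RNA (cyanine 5) met vehicle RNA (cyanine 3). The number of mice behind an array, and whether all arrays used the same vehicle RNA, are not given in the sources used here, so the 4 comparisons may share their control.

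The values are log2 ratios, read as drug over vehicle; both this direction and the log10 scale of the deposited table are likely rather than stated. If the table were in log2 already, every log2 ratio below would be smaller by a factor of 3.32. If the ratio were vehicle over drug, every sign below would turn, and with it each percentile, ranking and share that rests on the direction. The turned value is printed beside some of the shares only. The arrays hold ratios and no signal levels, so a gene's abundance in cortex, its distance from background and the labelled tissue's own markers could not be checked. Values printed as a run of 4 are in the order chlorpromazine, thioridazine, olanzapine, quetiapine. Repeated spots of one transcript, where it had at least 10, differed by a typical SD of 0.06, 0.16, 0.16 and 0.10 log2 units, which is the spread within an array and not between mice. In bulk tissue, fewer cells that make a transcript and less transcript per cell cannot be told apart.

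A receptor of this kind passes its signal to a heterotrimeric G protein, whose alpha subunit is active while it holds GTP. Gnai1 and Gnao1 encode alpha subunits of the Gi/o class, the class used by dopamine D2-like receptors, which antipsychotic drugs block. Gnal encodes Golf, which stimulates adenylyl cyclase below D1-like receptors in the striatum. Gnaq encodes Gq, which activates phospholipase C below serotonin 5-HT2A and muscarinic receptors. RGS proteins bind active alpha subunits and speed up GTP hydrolysis, which ends the signal.

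No member passed the test of a change shared by the 4 drugs, and none passed the test between drug classes. The member ratios farthest from vehicle on any array were those of Rgs2 and Rgs16, small RGS proteins of the R4 subfamily, on the olanzapine array. Rgs2 was 1.79-fold above vehicle and Rgs16 was 1.84-fold below. Rgs4, the other R4 member, was at -0.31 there. Gnaq and Gnal, each averaged over 2 features, lay below vehicle, and Gnai1 above it, on 4 of 4 arrays. Rgs9 and Rgs16 were below 0 on 4 of 4 arrays too, but Rgs9 was at vehicle level with olanzapine (-0.0046). Rgs16 was close to it with chlorpromazine (-0.02). The share of all genes on one side of vehicle on all 4 arrays was not counted, so these members are not set apart by it. Gnaq, Gnai1 and Gnal had the narrowest ranges of the members over the drugs. For Gnaq and Gnal the averaging narrows the range, and 1 Gnaq feature alone ran from -0.72 to -0.15. For Gnal the value came from 1 of its 2 features.

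The promoters of the 3 R4 members are shown because these genes had the widest ranges of the members over the arrays. On the olanzapine array Rgs2 and Rgs16 lay farthest from vehicle, on opposite sides, while Rgs4 was at -0.31. Each sequence runs from 250 bases before to 50 bases after the transcription start in RefSeq (build GRCm38.p6). They lie at chr1:144004100-144004399 on the minus strand for Rgs2, at chr1:169747593-169747892 on the minus strand for Rgs4, and at chr1:153740103-153740402 on the plus strand for Rgs16. Capitals mark the short form of the cyclic AMP response element, TGACG or, on the other strand, CGTCA.
Rgs2: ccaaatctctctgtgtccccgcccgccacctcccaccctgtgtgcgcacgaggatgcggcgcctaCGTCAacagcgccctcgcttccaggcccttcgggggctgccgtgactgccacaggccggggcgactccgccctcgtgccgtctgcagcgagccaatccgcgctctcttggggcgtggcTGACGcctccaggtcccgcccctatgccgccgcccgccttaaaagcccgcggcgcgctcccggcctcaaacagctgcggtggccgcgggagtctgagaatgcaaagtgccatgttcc
Rgs4: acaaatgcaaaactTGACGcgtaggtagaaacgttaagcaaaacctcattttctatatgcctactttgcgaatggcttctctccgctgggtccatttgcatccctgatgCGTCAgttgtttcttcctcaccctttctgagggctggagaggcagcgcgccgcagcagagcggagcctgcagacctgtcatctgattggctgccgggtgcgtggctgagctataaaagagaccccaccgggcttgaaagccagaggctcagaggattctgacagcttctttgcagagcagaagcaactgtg
Rgs16: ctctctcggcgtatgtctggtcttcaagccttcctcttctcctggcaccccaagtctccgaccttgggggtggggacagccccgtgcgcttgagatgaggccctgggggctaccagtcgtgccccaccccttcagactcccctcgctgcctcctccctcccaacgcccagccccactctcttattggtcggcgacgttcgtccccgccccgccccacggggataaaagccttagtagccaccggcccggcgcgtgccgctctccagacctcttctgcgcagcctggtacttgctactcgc
The short form occurred 2 times in the Rgs2 window and 2 times in the Rgs4 window, and not in that of Rgs16. Of the 9 members with a promoter in the RefSeq table these were the only 2 that held it, and 20.8% of all 32851 promoters there hold it. The full palindrome TGACGTCA, found in 1.79% of promoters, and the serum response element, found in 1.63%, occurred in none of the 9 windows. The full palindrome also contains the short form, so the searches overlap. Rgs2 and Rgs4 thus share these letters. Their ratios lay on opposite sides of vehicle with chlorpromazine (-0.03 and 0.18) and olanzapine (0.84 and -0.31). Both genes were below vehicle with thioridazine (-0.12 and -0.21) and quetiapine (-0.40 and -0.66). A part of these letters in the ratios was not tested.

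Rgs2, an RGS protein with a preference for Gq that is induced by neuronal activity in rodents, had log2 ratios of -0.03 (chlorpromazine), -0.12 (thioridazine), 0.84 (olanzapine) and -0.40 (quetiapine). The olanzapine array stood alone above vehicle, at the 94.1st percentile of genes on that array. The range over the arrays was 1.24 log2 units, the widest of the members and wider than that of 89.9% of all genes. Its mean over the 4 drugs was 0.07 (SE 0.22, limma adjusted p = 0.844), and without the olanzapine array the mean was -0.18.

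Rgs16, a small RGS protein that acts on Gi/o and Gq subunits, had log2 ratios of -0.02, -0.30, -0.88 and -0.35. All 4 lay below 0, with chlorpromazine close to vehicle and olanzapine lowest, at the 4.19th percentile of that array. The mean was -0.39 (SE 0.15, limma adjusted p = 0.190) and moved to -0.23 without the olanzapine array. Rgs4, an RGS protein of cortical neurons that acts on Gi/o and Gq, had 0.18, -0.21, -0.31 and -0.66. Its quetiapine value was 1.58-fold below vehicle, and the chlorpromazine value lay on the other side of 0. The mean was -0.25 (SE 0.15, limma adjusted p = 0.325), and it was -0.11 without the quetiapine array and -0.39 without the chlorpromazine array.

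Rgs7 and Rgs9 belong to the R7 subfamily, whose proteins act on Gi/o and are stable only in a complex with the G beta subunit Gnb5. Rgs9, known for its high level in the striatum, had log2 ratios of -0.61 (chlorpromazine), -0.42 (thioridazine), -0.0046 (olanzapine) and -0.29 (quetiapine). The phenothiazines gave the lowest values, chlorpromazine 1.53-fold below vehicle, and olanzapine was at vehicle level. Rgs7 had 0.32, -0.18, -0.13 and -0.34, so that chlorpromazine alone was above vehicle. The mean of Rgs9 was -0.33 (SE 0.11, limma adjusted p = 0.164) and that of Rgs7 was -0.08 (SE 0.12, limma adjusted p = 0.684). Gnb5 had -0.01, -0.11, -0.32 and -0.19.

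Rgs10, a small RGS protein of the R12 subfamily that is abundant in microglia, had log2 ratios of -0.21, 0.08, -0.01 and -0.28. Chlorpromazine and quetiapine were the low arrays. Over 10 measured microglia markers the median log2 ratios were -0.40, 0.29, -0.01 and 0.06. The markers had their lowest median on the chlorpromazine array, where 8 of 10 lay below 0, against 48.6% of all genes (with the direction turned, their highest median and 8 of 10 above 0), and on the quetiapine array they ran from -1.16 for P2ry12 to 1.15 for C1qa, a complement gene. Their part in the Rgs10 values was not tested.

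**Figure D1:**
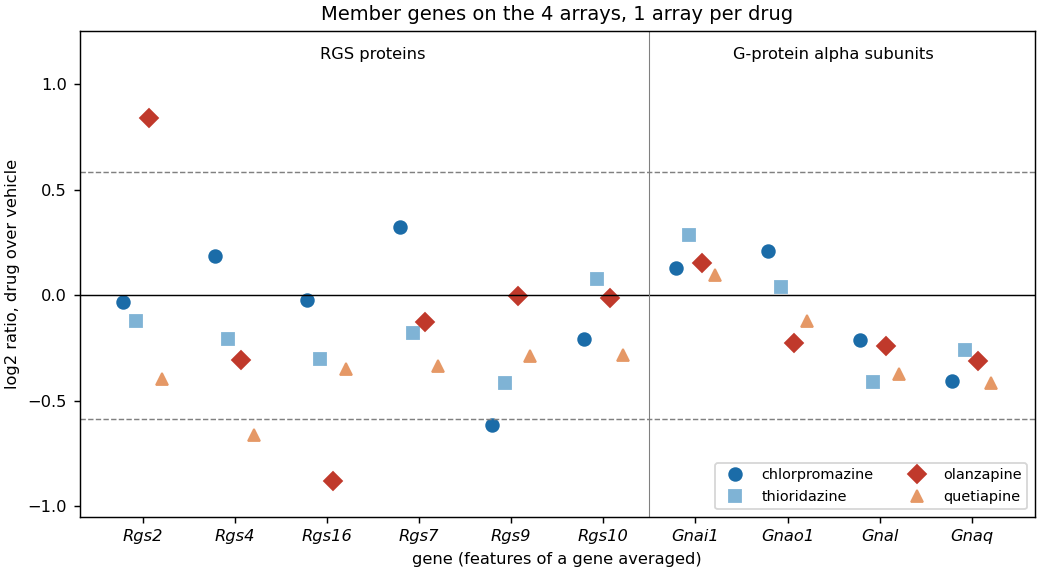
Log2 ratio of drug over vehicle (vertical axis) for each member gene (horizontal axis), with 1 symbol for each of the 4 arrays; dashed lines mark 1.5-fold. Rgs2 with olanzapine is the only point above the upper line, while Rgs16 with olanzapine, Rgs4 with quetiapine and Rgs9 with chlorpromazine lie below the lower line.

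Among the alpha subunits, Gnai1 had log2 ratios of 0.13 (chlorpromazine), 0.28 (thioridazine), 0.15 (olanzapine) and 0.09 (quetiapine). It was the only member above 0 on all 4 arrays, and its mean was 0.16 (SE 0.06, limma adjusted p = 0.183). Gnao1, the abundant Go of neurons, had 0.21 and 0.04 with the phenothiazines and -0.23 and -0.12 with olanzapine and quetiapine. The drug classes thus lay on opposite sides of vehicle, at values no larger than 1.17-fold. The thioridazine value was smaller than the typical SD of repeated spots on that array, 0.16 log2 units. The mean of Gnao1 was -0.03 (SE 0.09, limma adjusted p = 0.866).

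Gnal, averaged over its features, had log2 ratios of -0.21, -0.41, -0.24 and -0.37. Gnaq, averaged likewise, had -0.41, -0.26, -0.31 and -0.42. Each gene was below vehicle on 4 of 4 arrays. The mean of Gnaq was -0.35 (SE 0.06, limma adjusted p = 0.0844), and that of Gnal was -0.31 (SE 0.06, limma adjusted p = 0.103). The adjusted p of Gnaq was the lowest of the members with features averaged. With features apart, the lowest was that of a Gnal feature (limma adjusted p = 0.0654), and the Gnaq features had 0.109 and 0.178. Neither gene passed, and the pair of features of each gene did not give the same value.

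The Gnal feature that the platform assigns to a RefSeq mRNA had log2 ratios of -0.44 (chlorpromazine), -0.81 (thioridazine), -0.71 (olanzapine) and -0.78 (quetiapine). The Gnal feature assigned to a cDNA record had 0.01, -0.01, 0.23 and 0.04. The first lay below vehicle on every array and the second was at -0.01 or higher. The difference between them ran from 0.45 to 0.94 log2 units. Among 959 genes with 2 features, a difference as large as that of Gnal was found for 23.5% on the chlorpromazine array and 11.7% on the quetiapine array. With every feature tested on its own, the RefSeq feature had a mean of -0.69 (SE 0.08, limma adjusted p = 0.0654) and the cDNA feature of 0.07 (SE 0.07, limma adjusted p = 0.546). In that fit 0 of the 12 member features passed, against 0.13% of all features.

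For Gnaq, the RefSeq feature had log2 ratios of -0.72, -0.15, -0.52 and -0.58, and the cDNA feature had -0.09, -0.37, -0.10 and -0.25. Both features lay below vehicle on all 4 arrays, but they ranked the drugs in a different order. Thioridazine was nearest to vehicle on the first feature and farthest from it on the second. Their means were -0.49 (SE 0.11, limma adjusted p = 0.109) and -0.20 (SE 0.07, limma adjusted p = 0.178). The sources used here do not give the parts of the transcripts that these features cover.

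**Figure D2:**
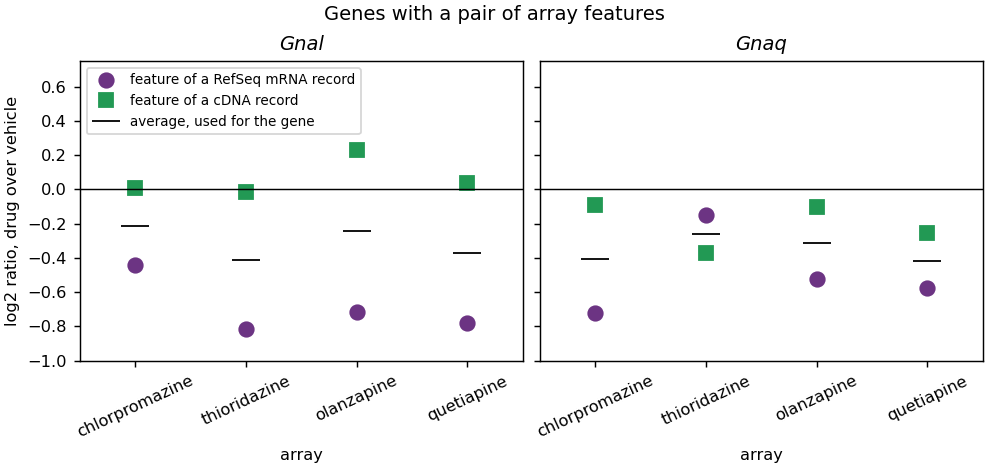
Log2 ratio of drug over vehicle (vertical axis) on each array (horizontal axis) for the features of Gnal and Gnaq; circles are the feature of a RefSeq mRNA record, squares that of a cDNA record, and dashes the average used for the gene. The features of Gnal differ by 0.45 to 0.94 log2 units, and those of Gnaq change order on the thioridazine array.

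Rgs9 and Gnal are both high in the striatum, which lies next to the frontal cortex. Over 6 measured markers of striatal neurons the median log2 ratios were 0.22, 0.28, 0.17 and 0.12. These medians were above 0 on each array, where Rgs9 and the averaged Gnal were below it, Rgs9 at -0.0046 with olanzapine. The cDNA feature of Gnal, at 0.01, -0.01, 0.23 and 0.04, was below 0 only with thioridazine. The markers were not uniform: the means over the drugs ran from -0.11 for the neuropeptide gene Tac1, below vehicle on 3 of 4 arrays with -0.38 on the chlorpromazine array, to 0.32 for the striatal phosphodiesterase gene Pde10a. Ppp1r1b, which encodes the phosphatase inhibitor DARPP-32, was at -0.42 with thioridazine and above vehicle with the other drugs. None of the 6 passed limma in the mean (2 at an unadjusted p under 0.05, against 26.2% of all genes). Their part in the Rgs9 and Gnal values was not tested.

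Rgs2 was next set beside 14 activity-regulated genes. Their median log2 ratios were -0.20, -0.15, 0.37 and -0.39. Olanzapine was the array on which most of them, 10 of 14, lay above vehicle, against 52.2% of all genes, and quetiapine the one on which 11 of 14 lay below, against 49.1%. With the direction turned these become 10 of 14 below vehicle with olanzapine, against 52.2% of all genes, and 11 of 14 above with quetiapine, against 49.1%. The transcription factor gene Junb, chosen after its values were seen, had -0.30, -0.15, 0.98 and -0.30. Npas4, a transcription factor gene chosen likewise, had -0.11, 0.17, 1.19 and -0.09. Fos, chosen likewise, was at 0.82 with olanzapine, but its 2 features differed by up to 2.85 log2 units. By contrast Arc, a gene of synaptic plasticity, had -0.78, -0.96, -0.44 and -2.56, and was below vehicle with olanzapine too. The transcription factor genes Egr2 and Egr1 reached -2.40 and -1.98 with quetiapine, where Rgs2 had -0.40. The part of neuronal activity in the Rgs2 values was not tested.

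**Figure D3:**
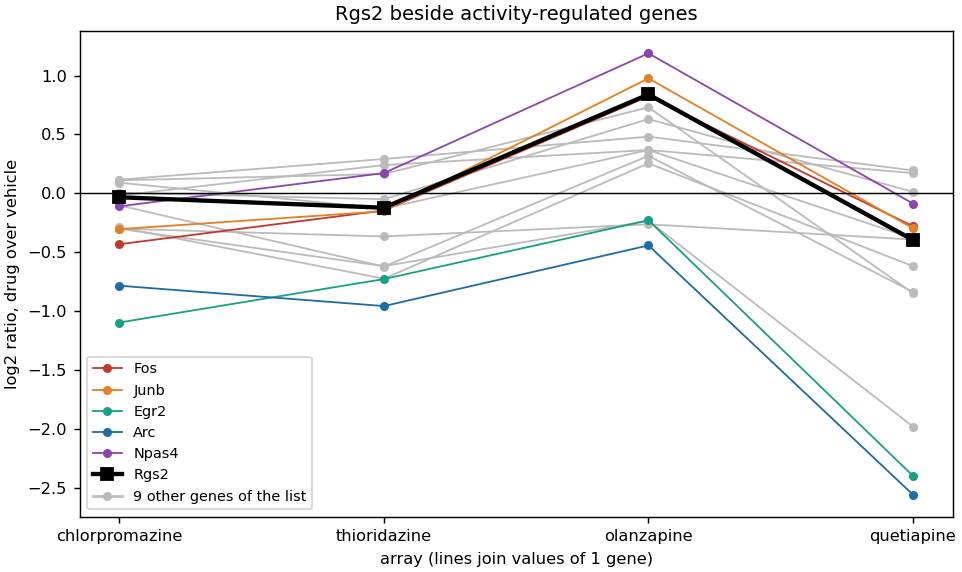
Log2 ratio of drug over vehicle (vertical axis) on the 4 arrays (horizontal axis) for Rgs2, in black, and 14 activity-regulated genes; a line joins the values of 1 gene. Rgs2 is at 0.84 on the olanzapine array, near Fos and Junb, and at -0.40 on the quetiapine array, where Arc and Egr2 lie lower, at -2.56 and -2.40.

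Among all genes measured on all 4 arrays, those nearest to Rgs2 by Euclidean distance over the 4 log2 ratios were Aadacl4fm1 (distance 0.18), the transcription factor gene Rfx7 (0.19) and the nuclease gene Aen (0.20). Aadacl4fm1 was at 0.89, Rfx7 at 0.75 and Aen at 0.69 on the olanzapine array. Each lay between -0.35 and -0.52 with quetiapine. The likeness rests on 4 values, of which that of olanzapine is the largest.

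Read drug by drug, the members had median log2 ratios of -0.03, -0.19, -0.18 and -0.34, where the medians of all genes were between 0.01 and 0.02. Quetiapine gave the lowest median, which with the direction turned would be the highest, at 0.34. On that array 9 of 10 members lay below vehicle, all 6 RGS genes among them with values from -0.66 to -0.28, against 49.1% of all genes. With the direction turned, the same 9 members would lie above vehicle. At a threshold of 1.5-fold, 1 of 10 members was past it with chlorpromazine (Rgs9), 0 with thioridazine, 2 with olanzapine (Rgs2 and Rgs16) and 1 with quetiapine (Rgs4). The shares of all genes past 1.5-fold were 6.91%, 13.4%, 17.4% and 12.6%, so with 10 members these counts do not set them apart. No member was 2-fold from vehicle on any array, where 1.69%, 4.52%, 7.97% and 3.74% of all genes were. With 1 array for each drug these values have no replicate check.

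Chlorpromazine and thioridazine, phenothiazines that differ in the amine side chain and in a ring substituent, were given at the same dose of 25 mg/kg. The largest difference between them was that of Rgs7, at 0.32 and -0.18, or 0.50 log2 units. Rgs4 followed with 0.39 units. No member differed by 1.5-fold between these arrays, against 12.8% of all genes. The difference between 1 array and 1 array has no replicate interval and was not tested.

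Across the 4 drugs, taken as replicates of treatment, 0 of 10 members passed limma at an adjusted p of 0.05, against 0.149% of 16139 genes. Means were below 0 for 8 members, against 49.0% of all genes, and with the direction turned they would be above 0 for these 8. The median of the members' means came to -0.18 and that of all genes 0.01. At an unadjusted p under 0.05 there were 5 members, Gnaq, Gnal, Rgs9, Gnai1 and Rgs16, against 26.2% of all genes; on Gnai1 the mean was above 0 and on the other 4 below. The count fell to 2 (Gnal and Gnaq) without the thioridazine array, where it was 15.4% of all genes, and to the same 2 without the quetiapine array, where it was 19.1%. Without the olanzapine array it was 3, against 19.3%, and with the ordinary t statistic 3, against 22.0%. The arrays may share their vehicle RNA, and no dyes were swapped, so a drug effect, a difference in that vehicle RNA and a dye bias cannot be told apart in these means.

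In the comparison of drug classes, phenothiazines minus the azepine-ring drugs olanzapine and quetiapine, 0 of 10 members passed limma, and 0.0% of all genes did. At an unadjusted p under 0.05 the counts were 0 of 10 members and 2.84% of all genes. With 1 array left out, 1 of the classes rests on a single array. Without the quetiapine array, for example, the phenothiazines are set against olanzapine alone. Rgs4 was at -0.01 in the mean of the first class and -0.48 in that of the second, and the difference was 0.47 (95% interval -0.16 to 1.11). Rgs16 differed by 0.45 (95% interval -0.25 to 1.15) and Rgs9 by -0.37 (95% interval -0.86 to 0.12). Single arrays moved these values: Rgs4 was at 0.28 without chlorpromazine and 0.30 without quetiapine, Rgs16 at 0.19 without olanzapine and 0.72 without quetiapine, and Rgs9 at -0.23 without olanzapine. Gnao1 differed by 0.30 (95% interval -0.10 to 0.70). For Rgs2 the interval ran from -1.59 to 0.99, because the azepine-ring drugs gave it values of 0.84 and -0.40. The intervals, which are not adjusted for the number of genes, extended by 0.51 log2 units in either direction at the median of the members. Class and dose differ together here.

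**Figure D4:**
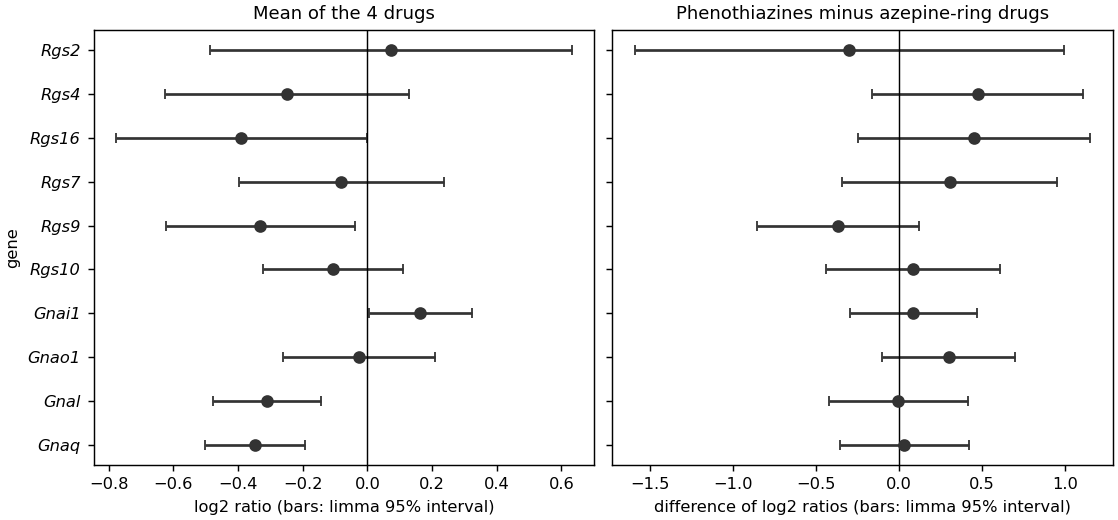
Left, mean log2 ratio of the 4 drugs, and right, difference between phenothiazines and azepine-ring drugs (horizontal axes, log2 units), for each member (vertical axis); points are limma estimates and bars 95% intervals, unadjusted for the number of genes. Gnaq, Gnal, Rgs9 and Rgs16 have intervals below 0 and Gnai1 above 0 on the left, and no interval excludes 0 on the right.

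Several members lie next to another gene of these families in the RefSeq order of protein-coding genes (GRCm38.p6), and the neighbours were read side by side. Rgs13, an RGS gene of immune cells that follows Rgs2 on chromosome 1, had log2 ratios of 0.76, 0.55, 0.87 and 1.15. It was above vehicle on every array, and its mean was 0.83 (SE 0.11, limma adjusted p = 0.0656). Rgs2 was above vehicle only with olanzapine. Rgs8, which precedes Rgs16, had -0.09, -0.38, -0.35 and -0.48, below vehicle on every array as Rgs16 was. Its mean was -0.32 (SE 0.08, limma adjusted p = 0.126). Rgs5, a pericyte gene next to Rgs4, stayed between -0.11 and 0.17, but its 2 features differed by up to 0.48 log2 units. Gna14, of the Gq class and next to Gnaq, had -0.12, -0.27, 1.17 and 0.06, and was thus on the other side of vehicle from Gnaq with olanzapine. Gna13, next to Rgs9 on chromosome 11, reached 1.58 with olanzapine, but its 2 features differed by up to 2.91 log2 units.

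Of 15 other RGS genes looked for, 13 were measured and 0 passed limma in the mean of the drugs in either direction (3 at an unadjusted p under 0.05). Of all genes, 0.149% passed in this fit and 26.2% were at an unadjusted p under 0.05, the shares to set beside each list count below. Rgs18, an RGS gene of platelets and myeloid cells, was at -1.44 with olanzapine and between 0.23 and 0.37 with the other drugs. Of 11 other alpha subunit genes measured, 0 passed (2 unadjusted). Gnas, the ubiquitous Gs gene, stayed between -0.11 and -0.0012, but its 2 features differed by up to 0.31 log2 units. The 5 G beta genes had means below 0, against 49.0% of all genes (with the direction turned, above 0), and 0 passed (0 unadjusted). The means of Gnb1, Gnb2 and Gnb3 were close to 0, at -0.01, -0.05 and -0.01. Those of Gnb4 and Gnb5 were -0.25 and -0.16. Gnb2 had 0.35 and 0.24 with the phenothiazines and -0.43 and -0.36 with olanzapine and quetiapine.

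Of 12 G gamma genes, 0 passed (1 unadjusted, against 26.2% of all genes). Gng7, whose product pairs with Golf in the striatum, had log2 ratios of -0.22, 0.88, 1.99 and 0.10, unlike either feature of Gnal. Gng2 was at -1.38 with quetiapine and between -0.32 and -0.07 with the others. Gng12 was at 1.03 with quetiapine, but its 2 features differed by up to 0.71 log2 units. Each of these values comes from 1 array.

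**Figure D5:**
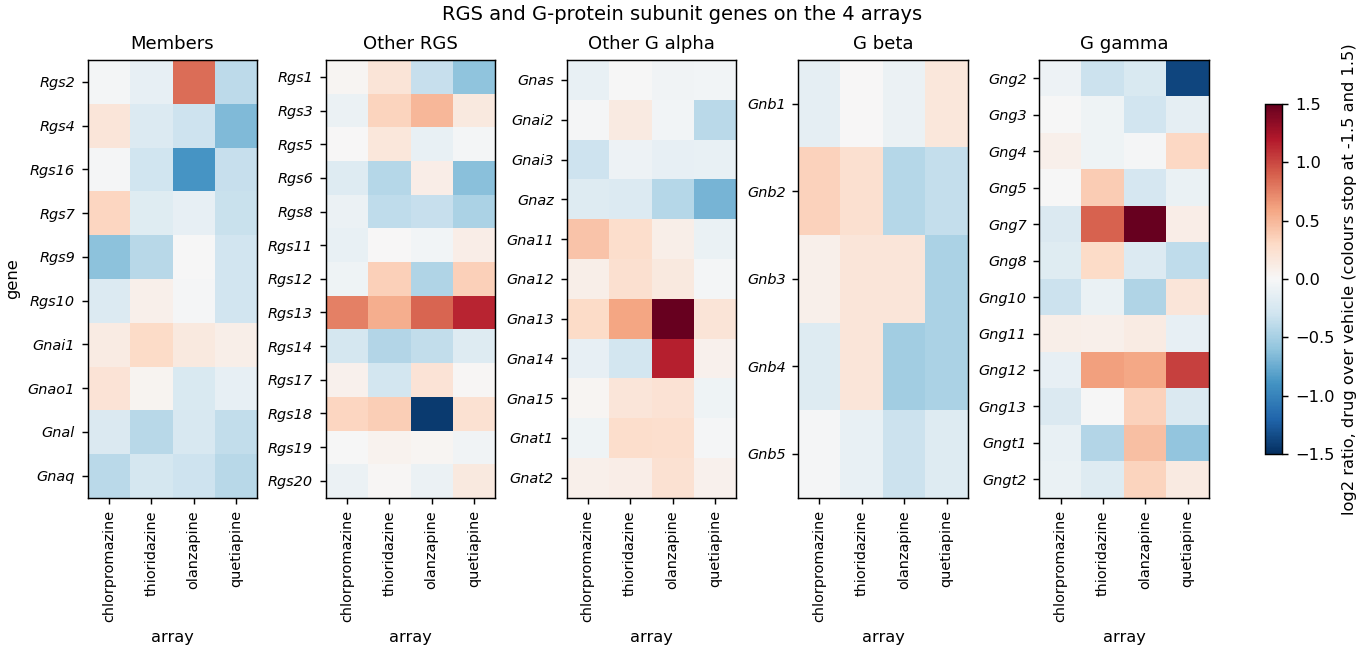
Log2 ratio of drug over vehicle, as colour, for the members, other RGS genes, other alpha subunits, G beta and G gamma genes (rows) on the 4 arrays (columns); colours stop at 1.5 log2 units. Rgs13 is above vehicle on all 4 arrays, and on the olanzapine array Gng7 at 1.99 and Gna13 at 1.58 are the highest values shown and Rgs18 at -1.44 the lowest.

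Among the effectors of these subunits, 0 of 10 adenylyl cyclase genes passed (2 unadjusted), and 0 of 4 phospholipase C beta genes (0 unadjusted) and 0 of 4 genes of G-protein-gated potassium channels (1 unadjusted). The unadjusted share of all genes was 26.2%. The calcium-stimulated cyclase gene Adcy8 had log2 ratios of 1.58, 1.09, 0.02 and 0.65. Both phenothiazines were 2-fold or more above vehicle for it and olanzapine was at vehicle level, with a class difference of 1.0 (SE 0.31, limma adjusted p = 0.999). Plcb1, the cortical phospholipase activated by Gq, had 1.11 with chlorpromazine and -0.88, -0.53 and -0.85 with the others. Its sign with chlorpromazine was opposite to that of Gnaq. Kcnj5 was at 3.29 with olanzapine and 1.05 with thioridazine (limma adjusted p of the mean = 0.262).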

How the data were processed

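Ratios were measured on 4 dual-colour Agilent arrays, 1 per drug, with vehicle RNA in cyanine 3. Per the labels, the authors read the images with Agilent Feature Extraction 7.1, and normalised the dyes by LOWESS after rank consistency filtering. The deposited values were taken as log10 ratios, a likely and unstated scale; direction (likely drug over vehicle) and centring are unstated too, and the column medians are 0 except 0.00376 with olanzapine. They were multiplied by 3.32 to give log2.

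The platform annotation gave 18218 of 22393 features 1 symbol and 16 several (left out); 4159 were unnamed here. By Entrez identifier 18175 took the current RefSeq symbol. Exact zeros were treated as missing, features of a gene were averaged, and limma 3.58.1 (R 4.3.3) was fitted to the 16139 genes on all 4 arrays, with Benjamini-Hochberg adjustment, once to the mean of the arrays and once to the class difference. No label says that arrays are separate animals, and p-values cover only the spread between these 4. The small number of arrays limits the precision.

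Members and lists were chosen with earlier results of these data known. Named are all members, the genes nearest to the member with the widest range, and, for each list, up to 3 genes past 2-fold on an array. Neighbours, Gnb2, Gnb5, Gnas, Tac1, Ppp1r1b, Pde10a, Fos, Junb, Npas4, Grk5, Adcy5, Rgs1, Gngt2 and the partner genes were added after values were seen. Alternatives were zeros kept, features apart, arrays centred or scaled, a log2 reading, robust or no moderation, each array left out, and 2-fold; the turned direction was added after seeing the data.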

Additional observations from a re-analysis of the deposited data

Results flagged for a closer look

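Gnao1 and Gna14 had their phenothiazine values on one side of vehicle and their olanzapine and quetiapine values on the other. So did other genes of the lists, among them Gnb2, Adcy5, Rgs1 and Gngt2, with class differences of 0.68, 0.67, 0.58 and -0.38. The share of all genes with such a split was not counted. The class difference of Gnao1 was 0.30 log2 units, with both phenothiazines above vehicle. That of Gna14 was -0.81, with both below. Neither passed limma (adjusted p = 0.999 for each), and the olanzapine array alone, at 1.17, sets most of the value of Gna14. No member had an array far enough from the other 3 to be set apart by Dixon's test for 4 values.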

How the results depend on the processing

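The count of members passing limma was 0 in the mean of the drugs and 0 between classes under every alternative run. No paired analysis was possible because each drug has 1 array and the labels give no replicate numbers. The lowest adjusted p of a member in the mean ranged from 0.0654 to 0.250. With every feature on its own, the number past 1.5-fold was 2 (chlorpromazine), 1 (thioridazine), 3 (olanzapine) and 2 (quetiapine). With the table read as log2, or at 2-fold, it was 0 on the chlorpromazine, olanzapine and quetiapine arrays, and the quetiapine median was -0.10 under the log2 reading. These follow from how the alternatives are built. With features apart, Gnal had a mean of 0.066 on its cDNA feature and a class difference of 0.12 on its RefSeq feature, and Gnaq a class difference of -0.051 on its cDNA feature. With the arrays scaled to one spread the class difference of Gnaq was -0.048. Leaving out 1 array moved the mean of Rgs2 between -0.18 and 0.23, of Gnao1 between -0.10 and 0.041 and of Rgs7 between -0.21 and 0.0049; class differences ran from -0.92 to 0.32 for Rgs2, -0.11 to 0.093 for Gnal, -0.042 to 0.10 for Gnaq and -0.061 to 0.22 for Rgs10. With the sign kept, class differences ran from 0.28 to 0.67 for Rgs4, 0.19 to 0.72 for Rgs16, -0.51 to -0.23 for Rgs9, 0.053 to 0.55 for Rgs7, 0.0051 to 0.16 for Gnai1 and 0.21 to 0.38 for Gnao1. The cause of the sign changes was not tested. Signal over background is unknown, so dim features could not be set aside.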

Other observations

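Genes of proteins that handle these regulators gave 0 of 7 past limma in the mean of the drugs (2 at an unadjusted p under 0.05, against 26.2% of all genes). Rgs7bp, whose product anchors the R7 RGS proteins at the membrane, had log2 ratios of 0.11, -0.15, -0.15 and -0.78 with chlorpromazine, thioridazine, olanzapine and quetiapine. Rgs9bp, the anchor of Rgs9 in photoreceptors, had -0.62, 0.50, -0.30 and -0.55. Ric8b, the chaperone of Golf, had -0.06, 0.09, 0.46 and 0.25, above vehicle on 3 of 4 arrays. Gpsm3, a G-protein modulator of immune cells, had 0.18, 1.36, 2.10 and 0.75, above vehicle on each array, and its mean was 1.10 (SE 0.33, limma adjusted p = 0.146).

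Of 8 receptor kinase and arrestin genes measured, 0 passed (4 unadjusted, against 26.2% of all genes). Grk5, a kinase that desensitises receptors, had -0.45, -0.46, -0.70 and -0.37. Each array lay below vehicle, and the mean was -0.49 (SE 0.08, limma adjusted p = 0.0754).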
